A study of Mus musculus with 6 samples.

Results

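The genes described here carry the signal of adrenocorticotropic hormone (ACTH) into adrenal cells: the receptor Mc2r, its accessory protein Mrap, the stimulatory G protein gene Gnas, 4 subunit genes of protein kinase A (PKA), the phosphodiesterase genes Pde8a and Pde8b, and the transcription factor gene Creb1. They are 10 genes of 18163 that the array platform's annotation names, chosen by symbol. All 29 probe sets that name 1 of these genes alone were taken, of 34848 probe sets that name a single gene. Each array carried biotin-labelled total RNA of whole adrenal glands from male mice, 3 months old, of the strain Per2Brdm1/Cry1-/- (C57BL6x129Sv). Every mouse thus carried the Per2Brdm1 mutation and lacked Cry1, and the labels describe these animals as having no circadian clock. After 2 weeks of entrainment to a light-dark cycle the mice were moved to constant darkness, and glands were dissected 46 h or 54 h after lights off, with 3 arrays at each time. Both groups had the same genotype and treatment, so the comparison was between 2 times 8 h apart without a clock; glands of other genotypes were not analysed here. The sources used here do not say whether an array held 1 animal or a pool.

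ACTH from the pituitary binds MC2R on cortical cells, and the receptor reaches the cell surface only with MRAP. The receptor activates the alpha subunit of Gs, which switches on adenylyl cyclase, and the cyclic AMP made releases the catalytic subunits of PKA from their regulatory subunits. PKA then drives cholesterol transport and, through CREB and other factors, transcription of steroidogenic genes, while phosphodiesterases such as PDE8A and PDE8B break cyclic AMP down. In animals with a clock this pathway is one of the routes that set the daily rhythm of corticosterone.

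RefSeq promoter windows (assembly GRCm38.p6) ran from 250 bases before to 50 after a transcript start. For Mc2r and Mrap none was searched. For the other 8 of the 10 genes there were 24 windows in all. They were searched on both strands for TGACGTCA, the palindromic cyclic AMP response element (CRE) that CREB binds, for its core TGACG, for CAAGGTCA, a site of the adrenal factor SF-1, and for CACGTG, the E-box that clock activators bind. The CRE contains the core on each strand, so every CRE is also counted as core. Windows with a full CRE or an E-box are shown as 30 bases each, in lower case with the motif in capitals, since these are the sites of CREB and of the clock activators.
Prkar1a, CRE, chr11:109650889-109650918, plus strand: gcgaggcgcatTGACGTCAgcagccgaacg
Prkar1a, E-box, chr11:109650468-109650497, plus strand: accgaatcgtccCACGTGggtctgcggtag
Prkar2b, E-box, chr12:32061340-32061369, minus strand: gtttccggggatCACGTGggcgcgcgggcg
Prkaca, E-box, chr8:83972781-83972810, plus strand: ttctcggccaatCACGTGcgttcgcccgcc
The CRE of Prkar1a began 49 bases before 1 annotated start and 38 bases after another. The E-boxes began 62 bases before a start of Prkar1a, 80 before one of Prkar2b and 185 before one of Prkaca. Over the windows, the CRE was in 2 of 24 (1.79% of all 32851 windows), the core in 10 (20.8% of all), the E-box in 3 (7.15% of all) and the SF-1 site in 0 (1.56% of all). The 2 windows with a CRE were overlapping windows of Prkar1a that held the same site. Some core sites of Gnas and Prkar1a were also counted in 2 windows. By gene, the CRE was in 1 of 8 (2.03% of all 27025 genes) and the core in 6 (23.05% of all). The E-box was in 3 of the 8 genes (8.09% of all) and the SF-1 site in 0 (1.76% of all). The search of the 10 genes left out windows on 1 mouse chromosome, and no such step was applied to the shares over all windows. The windows of a gene overlap in part, and a match is a description of letters, not of binding.

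No gene of the group changed past the test between 46 h and 54 h. Of the 29 probe sets, 23 passed the filter on low values and were tested in limma on log2(intensity + 16), with adjustment over all 26961 probe sets tested. None of these 23 reached an adjusted p of 0.05 (0, against 0.115% of all probe sets tested), and 0 reached an unadjusted p of 0.05 (10.1% of all). Their log2 changes, 54 h minus 46 h, ran from -0.26 to 0.35 with a median of -0.02, and the median over all probe sets tested was also -0.02. The median size of the change without its sign was 0.05 for the group and 0.10 over all probe sets tested. The 95% confidence interval excluded a 1.5-fold change in either direction for 20 of the 23 (87.2% of all) and a 1.25-fold change for 14 of the 23 (33.7% of all). Bright probe sets have narrow intervals on this scale. In whole glands, fewer cells of a type and less RNA per cell cannot be told apart.

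**Figure D1:**
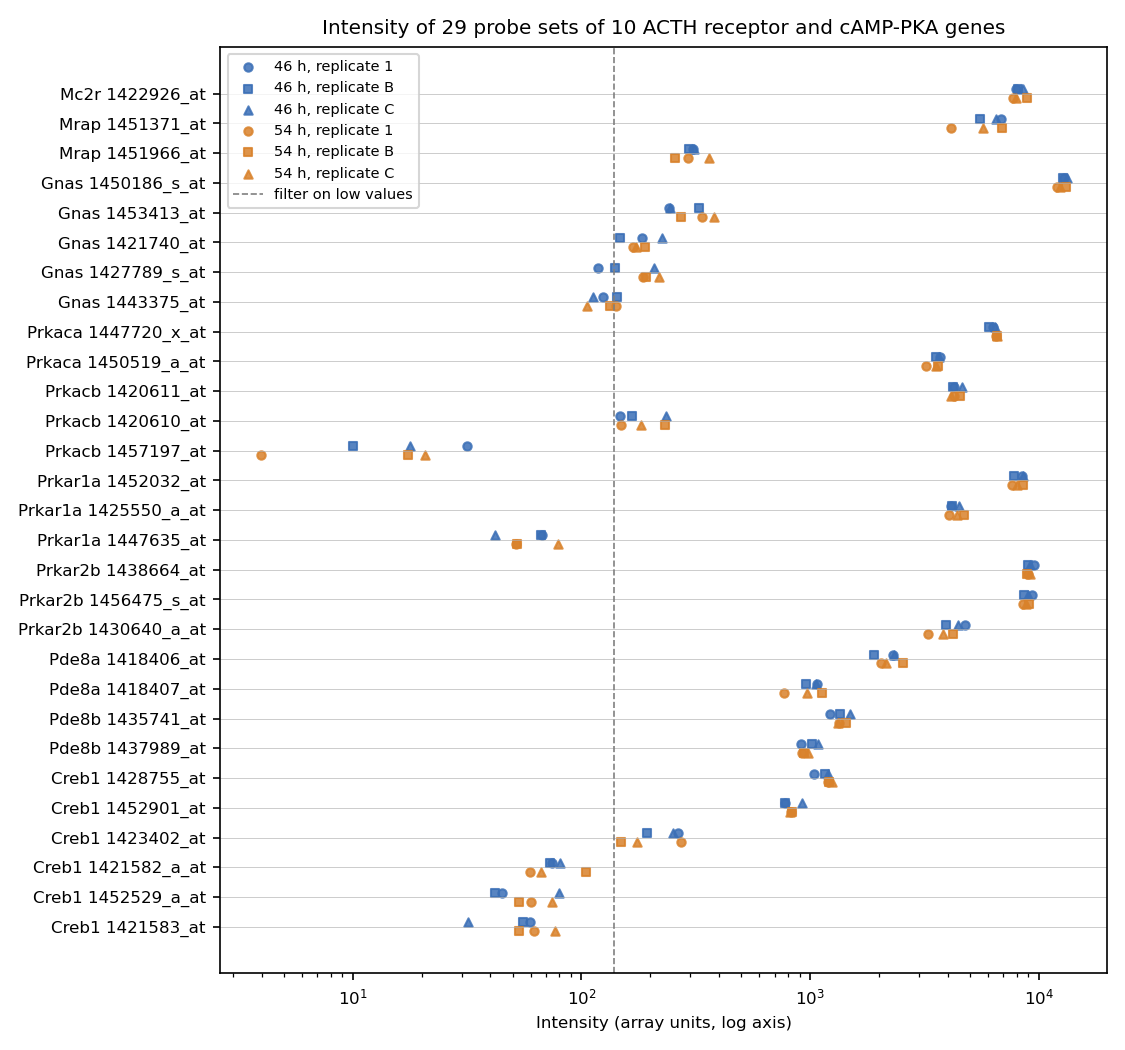
Intensity of the 29 probe sets on each array, on a log axis in array units; each point is 1 array, blue for 46 h and orange for 54 h, and the dashed line is the filter on low values at 139 units. Within a row the 6 arrays lie close together for the bright probe sets, and 6 probe sets have a mean under the line, which single arrays can cross in either direction.

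Mc2r, the ACTH receptor, was read by 1 probe set (1422926_at). On 46h replicates 1, B and C it stood at 7956, 8118 and 8510 intensity units, and on the 54 h arrays, in the same order of replicates, at 7753, 8855 and 7964 units. Values below keep this order. The highest and the lowest value both came from 54 h, and the groups overlapped. The means were 8195 ± 285 and 8191 ± 585 units (SD, n = 3 each). The probe set ranked between percentiles 98.8 and 99.0 of each array; probe sets differ in how strongly they bind, so such ranks do not order genes by abundance. Its log2 change was 0.00 ± 0.05 SE, with a 95% interval of -0.13 to 0.12 (adjusted p = 0.993 in limma). The widest gap between any 2 of the 6 arrays was 1.14-fold. By root mean square difference of centred log2 values over the 6 arrays, the most similar profiles were those of Slc25a5, a mitochondrial ADP/ATP carrier (0.013), and the ribosomal protein genes Rpl37a (0.014) and Rpl6 (0.015), found by a search over all probe sets tested that name a single gene. The deviation of Mc2r from its own mean was only 0.065 on this measure, so the matched profile was nearly flat.

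Mrap, which carries MC2R to the cell surface, varied more than its receptor. Its bright probe set (1451371_at) read 6822, 5528 and 6522 units at 46 h. At 54 h it read 4136, 6916 and 5680 units. As with Mc2r, both extremes were 54 h arrays, 54h replicate 1 at the bottom and 54h replicate B at the top, a 1.67-fold range on the log2(intensity + 16) scale. The mean went from 6291 ± 677 to 5577 ± 1393 units (SD, n = 3 each). On the log2 scale this was -0.20 ± 0.16 (SE; adjusted p = 0.722 in limma). The value rested on single arrays: with 54h replicate 1 left out it was 0.00, and with 54h replicate B left out -0.37 (adjusted p = 0.252 in limma). The dim Mrap probe set (1451966_at) read 308, 297 and 311 units at 46 h and 293, 257 and 361 units at 54 h, a log2 change of -0.02 ± 0.13 SE. Its lowest array was 54h replicate B, the highest for the bright probe set, so the pair did not follow each other from array to array.

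Mrap and Prkar2b are also genes of adipocytes, whose markers are therefore given beside them. Of 7 adipocyte markers, 5 had a probe set of their own, none of them at 0, and 0 passed limma. Their summed intensity, most of it from Fabp4 and Adipoq, was 22368 to 28295 units at 46 h and 24290 to 29620 at 54 h. Fabp4 and Adipoq overlapped between the times, with log2 changes of -0.06 and -0.11. Ucp1, Lep and Cidea were higher at 54 h without overlap, with log2 changes of 0.56, 0.59 and 0.67 (adjusted p = 0.436, 0.337 and 0.212 in limma). On 54h replicate 1, where Mrap was lowest, the adipokine gene Adipoq read 8218 units, its highest value, against 5796 on 54h replicate B, where Mrap was highest. The steroidogenic factor gene Nr5a1 read 3502 units on 54h replicate 1 and 5202 on 54h replicate B, the lowest and highest of its 6 arrays. Among the medullary markers, the adrenaline-forming enzyme gene Pnmt had its extremes on the same arrays, 5200 and 8078 units, whereas the noradrenaline-forming enzyme gene Dbh ran the other way, from its highest value of 10309 on 54h replicate 1 to its lowest of 8798 on 54h replicate B. The decarboxylase gene Ddc also ran the other way, at 3165 and 2745 units. The other medullary markers were higher on 54h replicate B than on 54h replicate 1, as Mrap was. Th read 9298 against 8561 units, Chga 13812 against 12432 and Chgb 14901 against 13381. The cortex markers Star, Cyp11a1, Cyp11b1 and Hsd3b1 were also lowest on 54h replicate 1, but highest on 46 h arrays. Summed markers of cortex, zona glomerulosa and medulla were lowest on 54h replicate 1, at 65292, 16073 and 53048 units. Of the zona glomerulosa markers only Cyp11b2 was lowest there, at 8243 units. Dab2 and Agtr1b were lowest on 54h replicate C, at 6844 and 747 units. The part of all these markers in the Mrap values was not tested. The profiles most similar to the bright Mrap probe set were those of Slc25a29, a mitochondrial carrier, Ccn1, a matrix protein, and Rbm5, a splicing factor, with root mean square differences of 0.045 to 0.047, against 0.25 for Mrap's own deviation from its mean.

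Gnas encodes the alpha subunit of Gs from a locus with several promoters and transcripts, and the sources used here do not say which transcripts each probe set reads. The bright probe set (1450186_s_at) read 12906, 12825 and 13252 units on the 46 h arrays and 12038, 13214 and 12375 on the 54 h arrays. The groups overlapped, and the log2 change was -0.05 ± 0.04 SE, with an interval of -0.14 to 0.04 (adjusted p = 0.699 in limma). Its level lies in the upper part of the scale, whose highest value was 17879 units, and whether differences are compressed there was not tested. The other 4 Gnas probe sets were dim, with means over the 6 arrays of 126 to 300 units.

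Among the dim Gnas probe sets, 1427789_s_at had the largest change of the whole group. It read 118, 141 and 209 units at 46 h and 185, 192 and 219 units at 54 h. The 54 h arrays lay above 46h replicates 1 and B, whereas 46h replicate C lay among them, and the log2 change of 0.35 ± 0.19 SE did not pass (adjusted p = 0.570 in limma). With 46h replicate C left out it was 0.56, and with 46h replicate 1 left out 0.19. The probe set 1453413_at read 241, 326 and 244 units at 46 h and 338, 272 and 379 units at 54 h, a log2 change of 0.27 ± 0.16 (SE; adjusted p = 0.609 in limma). For these 2 probe sets the 95% interval reached beyond 1.5-fold. Probe set 1421740_at had a log2 change of -0.04 ± 0.16 SE, and 1443375_at lay under the filter with 105 to 143 units over the 6 arrays. Of the dim probe sets tested, 1453413_at and 1427789_s_at thus had changes opposite in sign to that of the bright one, and 1421740_at a change close to it.

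Prkaca and Prkacb encode catalytic subunits of PKA, the part that phosphorylates targets once cyclic AMP has freed it. The brighter Prkaca probe set (1447720_x_at) read 6282, 6067 and 6413 units at 46 h and 6494, 6582 and 6600 units at 54 h. All 54 h arrays lay above all 46 h arrays, by a narrow margin of 6494 over 6413 units. The log2 change was 0.07 ± 0.04 (SE; adjusted p = 0.620 in limma). The second Prkaca probe set (1450519_a_at) went the other way, with 3705, 3564 and 3666 units at 46 h and 3228, 3632 and 3545 units at 54 h, a log2 change of -0.07 ± 0.06 SE. It was lowest on 54h replicate 1, and the time points overlapped. A suffix x marks probe sets with probes that can also bind other sequences.

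Prkacb was read by 1 bright probe set (1420611_at), at 4259, 4208 and 4639 units at 46 h and 4257, 4534 and 4152 units at 54 h. These values overlapped almost fully, with a log2 change of -0.02 ± 0.06 SE and an interval of -0.15 to 0.12 (adjusted p = 0.949 in limma). A dim probe set (1420610_at) ranged from 147 to 235 units with a log2 change of 0.04 ± 0.20 SE. A last one (1457197_at), under the filter, read 3.96 to 31.5 units, at the bottom of the scale.

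The regulatory subunits hold the catalytic ones inactive until cyclic AMP binds. Prkar1a, the type I alpha subunit, read 8472, 7770 and 8541 units at 46 h and 7607, 8500 and 8052 units at 54 h on its brighter probe set (1452032_at). The second (1425550_a_at) read 4120, 4182 and 4460 units at 46 h and 4053, 4736 and 4412 units at 54 h. Their log2 changes were -0.04 ± 0.05 SE and 0.05 ± 0.07 SE (adjusted p = 0.867 and 0.864 in limma), and both were lowest on 54h replicate 1. The remaining probe set (1447635_at) lay under the filter at 41.7 to 78.7 units.

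Prkar2b, the type II beta subunit, was read by 3 probe sets, and all 3 had lower means at 54 h. The bright ones barely moved. Probe set 1438664_at read 9580, 9009 and 9185 units at 46 h and 8939, 8910 and 9193 units at 54 h. Probe set 1456475_s_at read 9307, 8641 and 9021 units at 46 h and 8505, 9057 and 8800 units at 54 h. Their log2 changes were -0.04 ± 0.04 SE and -0.03 ± 0.04 SE, with intervals within 1.25-fold.

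The dimmest of the Prkar2b probe sets (1430640_a_at) had the smallest p of the group, just above 0.05 before adjustment. It read 4778, 3951 and 4454 units at 46 h and 3283, 4224 and 3819 units at 54 h. The extremes were 54h replicate 1 at the bottom and 46h replicate 1 at the top, while 54h replicate B lay between the 46 h arrays. The log2 change was -0.22 ± 0.10 (SE; adjusted p = 0.496 in limma). With 54h replicate 1 left out it was -0.12, and with 54h replicate B left out -0.31 (adjusted p = 0.204 in limma). A suffix a marks probe sets that read several transcripts of a gene.

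**Figure D2:**
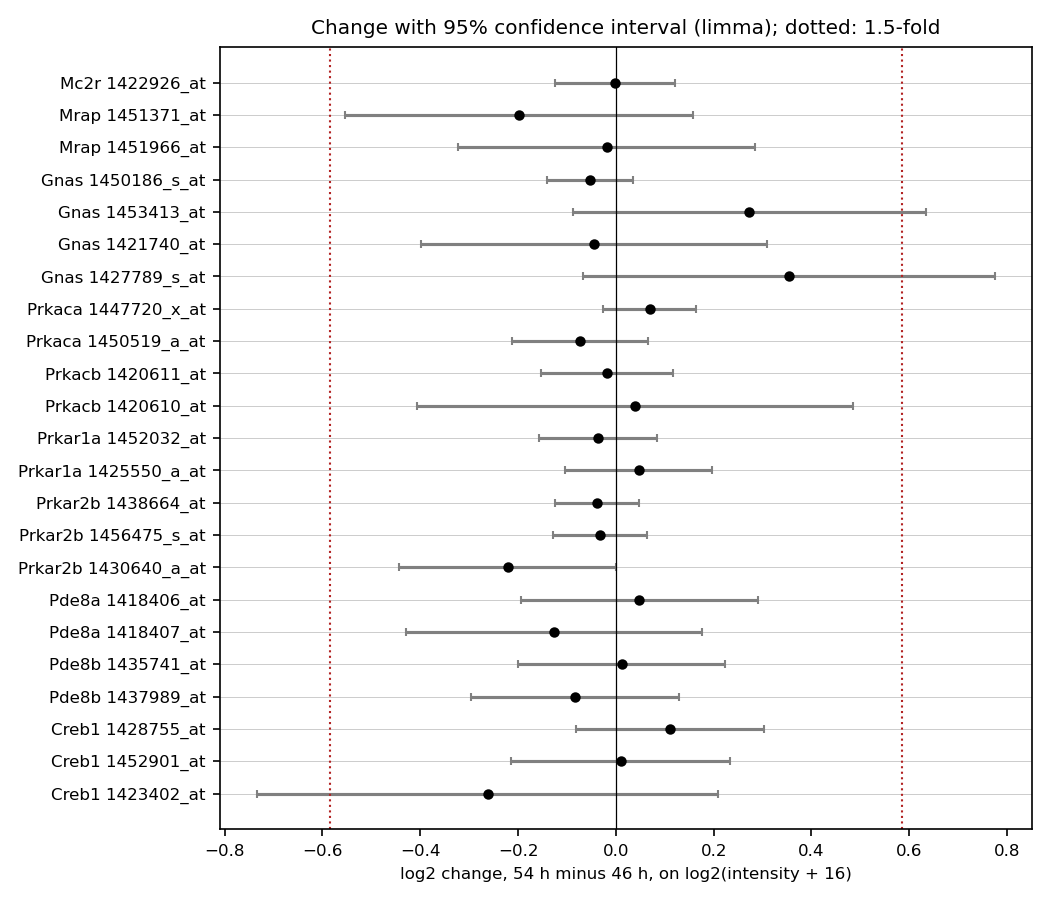
Change from 46 h to 54 h in log2 units for the 23 probe sets tested, with 95% confidence intervals from limma; dotted lines mark a 1.5-fold change in either direction. Every interval includes 0, and those of Gnas 1453413_at, Gnas 1427789_s_at and Creb1 1423402_at reach beyond a dotted line.

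PDE8A and PDE8B are high-affinity phosphodiesterases that lower cyclic AMP in steroidogenic cells. The brighter Pde8a probe set (1418406_at) read 2294, 1903 and 2330 units at 46 h and 2048, 2562 and 2139 units at 54 h, a log2 change of 0.05 ± 0.11 (SE; adjusted p = 0.920 in limma). The other (1418407_at) read 1068, 960 and 1063 units at 46 h and 766, 1123 and 968 units at 54 h, a log2 change of -0.13 ± 0.13 (SE; adjusted p = 0.801 in limma). Without 54h replicate 1 the latter was 0.02, and without 54h replicate B it was -0.25. Both were highest on 54h replicate B, and the second was lowest on 54h replicate 1, as the bright Mrap probe set was.

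Pde8b showed less spread. Its probe set 1435741_at read 1219, 1358 and 1494 units at 46 h and 1337, 1431 and 1325 units at 54 h, with a log2 change of 0.01 ± 0.09 SE. Its probe set 1437989_at read 909, 1025 and 1079 units at 46 h and 919, 939 and 977 units at 54 h, with a log2 change of -0.08 ± 0.09 (SE; adjusted p = 0.816 in limma). In both, the 46 h arrays spanned the values of the 54 h arrays.

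Creb1, which encodes the factor that PKA phosphorylates to switch on transcription, was listed with 6 probe sets, of which 3 passed the filter. The brightest (1428755_at) read 1044, 1157 and 1193 units at 46 h and 1200, 1214 and 1249 units at 54 h. The time points did not overlap, by a margin of 1200 over 1193 units, and the log2 change was 0.11 ± 0.09 (SE; adjusted p = 0.712 in limma). The second (1452901_at) read 774, 777 and 923 units at 46 h and 828, 837 and 818 units at 54 h, a log2 change of 0.01 ± 0.10 SE. The dimmest tested (1423402_at) read 266, 193 and 252 units at 46 h and 273, 150 and 176 units at 54 h, a log2 change of -0.26 ± 0.21 (SE; adjusted p = 0.723 in limma). It was highest on 54h replicate 1 and lowest on 54h replicate B, the reverse of the bright Mrap probe set, and its change was -0.50 when the first of these was left out and -0.09 when the second was. The other 3 Creb1 probe sets lay under the filter, between 32.1 and 105 units.

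Over the 23 probe sets, the time points did not overlap for 2, both higher at 54 h (of all probe sets tested 6.48% were higher and 9.05% lower without overlap, 15.5% in all): 1 of Prkaca and 1 of Creb1. The share that was higher, 2 of 23, is near the 6.48% of all probe sets. Since 0 were lower, the share in both directions together was below the 15.5% of all. Neither the Prkaca nor the Creb1 difference was carried by another probe set of the same gene. Of 9 genes with 2 or more tested probe sets, 2 (Mrap and Prkar2b) had changes of a single sign and 7 had changes of both signs. The widest disagreement within a gene was that of Gnas, 0.41 on the log2 scale, and the narrowest that of Prkacb, 0.06. By sign alone, 14 of the 23 changes were negative, or 11 with arrays centred on their medians, and 55.6% of all probe sets tested were lower. For 12 of the 23 the sign turned when at least 1 single array was left out.

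Some arrays held the lowest or highest value of a probe set more often than others. The array 54h replicate 1 was the lowest of the 6 for 9 of the 23 probe sets, against 22.0% of all probe sets tested, and 46h replicate 1 for 7, against 14.0% of all. The array 46h replicate C was the highest for 8 of the 23, which is near the 31.0% of all. Several of the 23 probe sets read the same gene, so these counts are not of separate genes. The median range over the 6 arrays was 0.25 on the log2 scale for the group and 0.38 for all probe sets tested.

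**Figure D3:**
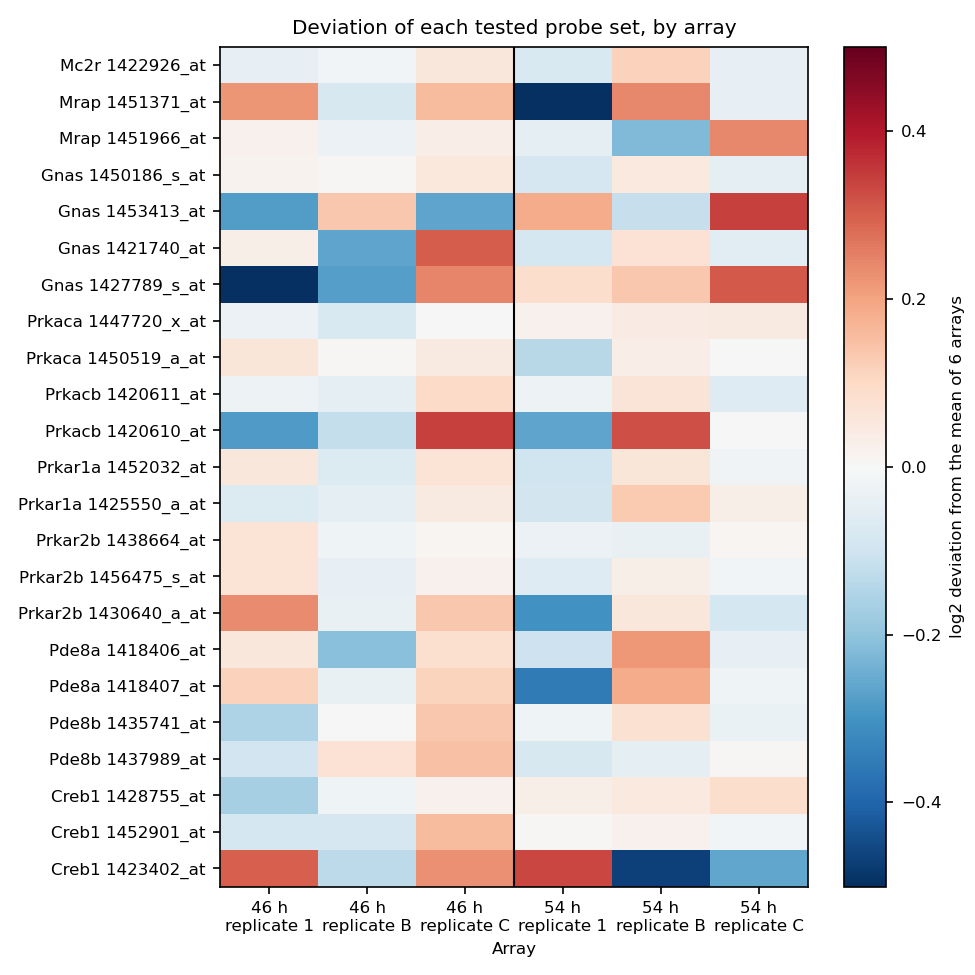
Deviation of each tested probe set from its own mean over the 6 arrays, in log2 units, by array; blue is below and red above the mean, and the black line separates 46 h from 54 h. The column of 54h replicate 1 is blue for the bright Mrap probe set, Prkar2b 1430640_a_at and Pde8a 1418407_at and red for Creb1 1423402_at, and no block of rows differs between the sides of the line.

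Other genes of the pathway were counted from a list of 60, each read from its brightest probe set: 55 had a probe set that names it alone, and 51 passed the filter. None of the 51 passed limma in either direction over all probe sets (0, against 0.115%), while 1 was higher (4.34% of all) and 3 were lower (5.75% of all) at an unadjusted p of 0.05. Their median log2 change was 0.03, against -0.02 over all probe sets tested. By sign, 34 of the 51 were higher at 54 h and 17 lower, while 55.6% of all probe sets tested were lower. Of 9 adenylyl cyclases, which make cyclic AMP, 8 were tested and 0 passed. Adcy6 had the smallest p of them: it read 801, 729 and 854 units at 46 h and 588, 660 and 619 units at 54 h. All 54 h arrays lay below all 46 h arrays, and the log2 change was -0.34 ± 0.10 (SE; adjusted p = 0.305 in limma). It ran from -0.40 to -0.29 when single arrays were left out.

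Of 6 other CREB family genes and coactivators tested, 0 passed. The cyclic AMP-responsive modulator gene Crem, whose inducible short products repress CREB targets, had the largest change of the list. Its brightest probe set read 1220, 647 and 1190 units at 46 h and 1694, 2330 and 2029 units at 54 h, a log2 change of 1.02 ± 0.22 (SE; adjusted p = 0.156 in limma). The 54 h arrays all lay above the 46 h arrays there, but not on the second Crem probe set, which read 826, 593 and 783 units at 46 h and 690, 1985 and 1459 at 54 h, with 54h replicate 1 among the 46 h values. Summed hepatocyte markers also did not overlap, with 3102 to 4930 units at 46 h and 6890 to 10521 at 54 h. Of 6 such markers none was at 0 and 1 passed limma, and their part in the Crem and Adcy6 values was not tested.

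In the remaining roles 0 genes passed. The genes with the smallest p in each were Gnai3, an inhibitory G protein subunit, with a log2 change of 0.08 ± 0.04 SE, Pkig, an inhibitor of PKA, with 0.15 ± 0.07, and Akap10, an anchor for PKA, with -0.24 ± 0.10. They were followed by the phosphodiesterase gene Pde1a with 0.27 ± 0.14 (0.15 to 0.43 with single arrays left out), the cyclic AMP-regulated exchange factor Rapgef3 with 0.14 ± 0.10 (0.10 to 0.22) and Pomc, which encodes the ACTH precursor, with -0.27 ± 0.13. In limma their adjusted p was 0.485 to 0.686. Pomc read 420 to 546 units at 46 h and 377 to 431 units at 54 h. For Pkig both probe sets had 54 h arrays above all 46 h arrays, whereas a dim Rapgef3 probe set had a log2 change of -0.42, opposite to its brightest. The dimmer Gnai3 probe set had a log2 change of 0.25 ± 0.11 SE, and its time points overlapped.

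**Figure D4:**
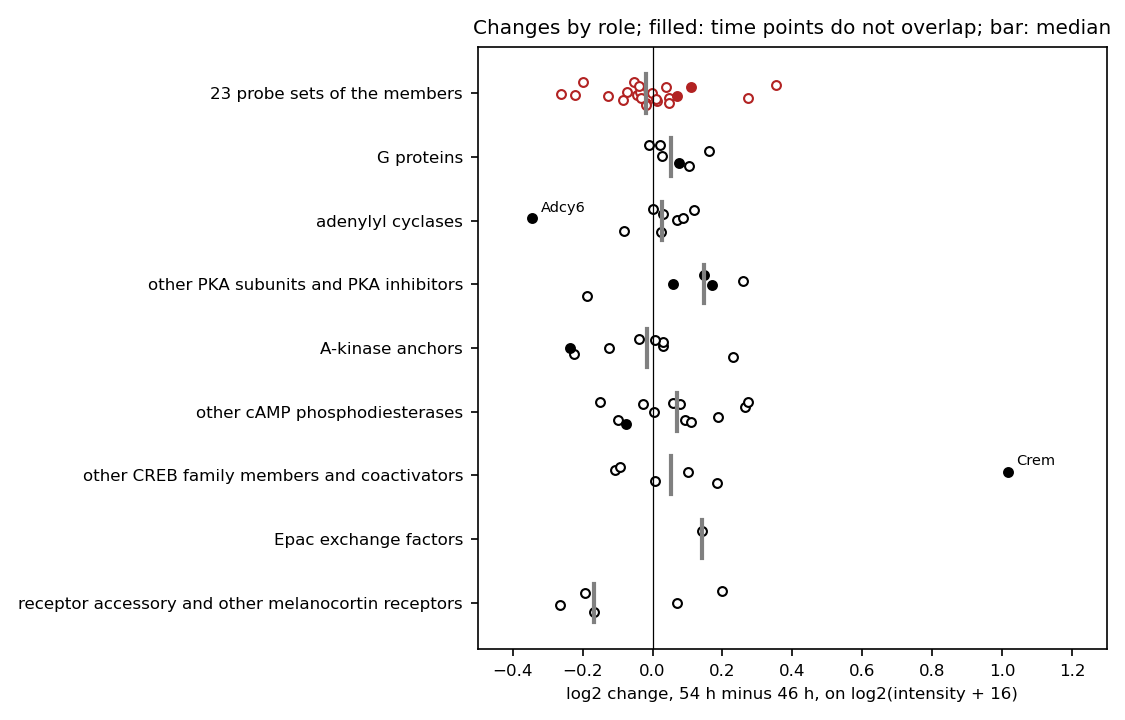
Change from 46 h to 54 h in log2 units for the 23 probe sets of the 10 genes (red, top row) and for 51 other pathway genes by role (black), each point a probe set; filled points mark time points that do not overlap and grey bars medians. Crem at 1.02 and Adcy6 at -0.34 lie outside the other genes of the pathway list.

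Array medians lay between 204 and 217 units, and the number of arrays limits the precision. Markers of cortex (5 of 5 measured), zona glomerulosa (3 of 3) and medulla (6 of 6) were all past the filter. Summed cortex markers were 68824 to 72229 units at 46 h and 65292 to 71303 units at 54 h. The summed intensity of 4 immune markers was 14918 to 16075 units at 46 h and 13425 to 13851 at 54 h; Cd74 and Lyz2 did not overlap between the times, Ptprc and Cd68 did, and 0 of the 4 passed limma. The sum of 3 endothelial markers was 5088 to 5692 units against 4691 to 4843; of these Kdr was lower without overlap, Pecam1 and Cdh5 overlapped, and 0 passed limma. In the series as a whole, 31 of 26961 probe sets passed limma, 2 without 46h replicate 1, 2 without 54h replicate C, 18 without 46h replicate B, and 66 and 61 without 54h replicates 1 and B.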

How the data were processed

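The values are those the authors deposited: 1 intensity per probe set and array, linear, on an Affymetrix mouse array. The sources used here do not give the background correction, normalization or probe-set summary. Of 45001 probe sets, 64 controls, 1 without values and 1 with a damaged value were left out, which left 44935. Values were transformed as log2(intensity + 16), which understates changes of dim probe sets, and kept if the mean log2 value was above the 40th percentile; the mean of log2 values was chosen over the mean intensity after the data were seen, to match an earlier treatment of these data. The 2 times were compared with limma 3.58.1 in R 4.3.3, by lmFit and by eBayes with a trend on intensity. The test was two-sided and adjusted by Benjamini-Hochberg over 26961 probe sets, with a threshold of 0.05; the smallest p an exact permutation test allows here is 0.1. The procedure was also run on simulated data, whose settings and outcome are not reported here. Names came from the platform's annotation; of 34848 single-gene probe sets 34644 matched a gene ID in RefSeq (GRCm38.p6). The labels name no animal per array, so the spread behind each p-value may be technical. Replicate names 1, B and C follow the titles, 1 being the one without a letter. Every probe set of the 10 genes is named; from the pathway list, the gene with the smallest p of each role. The members, lists and tests were chosen with earlier results of these data known. Alternatives were 2 normalizations, other filters, offsets and variance models, the replicate block, the mean over a gene's probe sets, and leaving out each array. Python 3.11.15 and matplotlib 3.10.9 drew the plots.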

Additional observations from a re-analysis of the deposited data

How the results depend on the processing

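The count of probe sets of the 10 genes past limma was 0 in every alternative run, and so was that of the 60 pathway genes; at an unadjusted p of 0.05 the first was 0 to 4, the 4 arising without 54h replicate B. The median log2 change of the group ran from -0.05 (without 54h replicate B) to 0.03 (without 46h replicate C). The sign of Mc2r, of the dim Mrap probe set and of the bright Prkacb probe set turned under a change of scaling. The count of 31 over all probe sets became 47 with quantile normalization, 50 with arrays centred on their medians, 48 with the filter at the 60th percentile, 3 without an intensity trend, 61 with a robust fit and 2719 at an unadjusted p of 0.05, and ran from 2 to 66 when single arrays were left out. A filter on the mean intensity, an alternative that was not planned, gave 32. The main filter, on the mean of log2 values, was also chosen after the data were seen. With the replicate block it was 45, and 0 for the 10 genes. Same-lettered arrays did not deviate together (correlations -0.0602, -0.405 and -0.487), so the letters are not taken to pair samples; 46h replicate B with 54h replicate C, and 46h replicate C with 54h replicate B, correlated at 0.46 and 0.383. Signals near the filter and near the top of the scale limit what can be seen.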
